A study of Mus musculus with 24 samples.

Results

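The genes described here are the mouse histone genes whose symbols begin with Hist1h, Hist2h, Hist3h or Hist4h, chosen by name alone; newer symbols of the H1f, H2ac, H2bc, H3c and H4c kinds were searched for too and added none. They number 70 of the 55364 genes listed in the round spermatid tables, and the same 70 stand among the 55401 genes of the CB tables. By class they are 6 linker H1 genes, 20 H2A, 19 H2B, 12 H3 and 13 H4 genes. In the RefSeq annotation of GRCm38.p6, 69 could be placed, 55 of them on chromosome 13, 10 on chromosome 3, 3 on chromosome 11 and 1 on chromosome 6.

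Replication-dependent histone genes supply the H2A, H2B, H3 and H4 of the nucleosome core, and linker H1, when DNA is copied. Their mRNAs usually end in a conserved stem-loop bound by the protein SLBP and not in a poly(A) tail, although polyadenylated forms exist. Germ cells also use testis variants of the same clusters, namely Hist1h1t (linker histone H1t), Hist1h2aa (TH2A) and Hist1h2ba (TH2B), which are known from spermatocytes. After meiosis, round spermatids no longer replicate DNA, and most of their histones are later replaced by transition proteins and then protamines.

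The mice of the study carried a tagged Ddx4 knock-in; Ddx4 encodes an RNA helicase of germ granules. Round spermatid RNA came from homozygous knock-in, heterozygous knock-in and wild-type testes (n = 2 libraries each), and CB RNA from homozygous and heterozygous knock-in testes (n = 3 each). Cells were released from the testes by digestion in 2 steps, and ages and strain are not given in the labels used here. The labels call the CB samples germ cells and leave the abbreviation unexplained; wild-type CB was not analysed here. The CB libraries were made from 25 ng of RNA with a stranded kit, with neither selection of polyadenylated RNA nor removal of ribosomal RNA. For round spermatids, 1 ug of RNA went into another kit, and whether poly(A) selection was used is not stated. The labels do not say that the libraries of a group came from separate animals, so p-values speak to sample-to-sample spread only, and that spread may be technical.

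Total counts ran between 14205962 and 16474872 in CB libraries and between 15312153 and 24886664 in round spermatid libraries. Ddx4 itself stood at 121 and 130 normalised CPM (counts scaled to a common library size, with a factor per library) in homozygous spermatids, 406 and 403 in heterozygous and 443 and 521 in wild-type spermatids. In CB it stood at 303, 306 and 244 CPM in homozygotes and at 277, 312 and 365 CPM in heterozygotes. All 17 round spermatid markers had counts in every library, with summed levels of 1360 to 2310 CPM in CB and 12100 to 23900 CPM in spermatids. One library in each kind stood apart. In wild-type spermatid library 1, genes under 1000 bases took 19.1% of counts, against 11.1 to 12.4% in the other spermatid libraries, and transition protein and protamine genes summed to 18000 CPM, against 7200 to 8280 CPM. In heterozygous CB library 1, those genes summed to 1440 CPM, against 939 and 833 CPM in its fellow libraries, and 12 spermatogonial markers summed to 59.0 CPM, against 116 CPM in each fellow library. Results are given below with and without these libraries where they matter.

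The start regions of the genes that carry the results show what the family shares in sequence. RefSeq windows of GRCm38.p6, from 250 bases before to 50 bases after the annotated start, were available for 61 of the 70 genes (62 windows). They were searched on both strands for 3 motifs, namely CCAAT, read as ATTGG on the other strand, TATAAA, read there as TTTATA, and the octamer ATTTGCAT, read there as ATGCAAAT. Matches of different motifs were allowed to overlap. CCAAT was present in 85.5% of histone windows, against 37.4% of all 32851 windows of that length. TATAAA was present in 56.5%, against 13.6% of all windows, and ATTTGCAT in 22.6%, against 1.74%. The octamer was found in 41.2% of H2A and 41.2% of H2B windows and in 0 H1, H3 or H4 windows. CCAAT was found in every H1, H2A, H2B and H3 window but in 3 of 12 H4 windows. A match says only that the letters are there. The windows below belong to the H1t gene (chr13:23695561-23695860, plus strand), to the TH2A gene (chr13:23934187-23934486, plus strand), and to 3 of the genes with the highest spermatid levels, Hist1h4a (chr13:23761200-23761499, minus strand), Hist1h2bp (chr13:21787238-21787537, plus strand) and Hist2h2aa1 (chr3:96245247-96245546, plus strand). Capitals mark the motifs.
Hist1h1t: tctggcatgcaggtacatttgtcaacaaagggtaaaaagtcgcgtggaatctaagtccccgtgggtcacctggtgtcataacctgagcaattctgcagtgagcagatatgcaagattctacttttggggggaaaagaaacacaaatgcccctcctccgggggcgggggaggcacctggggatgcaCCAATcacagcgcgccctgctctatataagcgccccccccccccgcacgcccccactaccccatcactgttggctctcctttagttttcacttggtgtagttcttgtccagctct
Hist1h2aa: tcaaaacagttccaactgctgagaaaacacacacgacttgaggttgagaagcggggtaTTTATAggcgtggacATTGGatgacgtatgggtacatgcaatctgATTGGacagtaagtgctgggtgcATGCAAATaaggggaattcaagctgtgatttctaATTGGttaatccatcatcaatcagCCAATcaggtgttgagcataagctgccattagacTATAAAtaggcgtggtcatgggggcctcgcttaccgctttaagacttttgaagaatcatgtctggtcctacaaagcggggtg
Hist1h4a: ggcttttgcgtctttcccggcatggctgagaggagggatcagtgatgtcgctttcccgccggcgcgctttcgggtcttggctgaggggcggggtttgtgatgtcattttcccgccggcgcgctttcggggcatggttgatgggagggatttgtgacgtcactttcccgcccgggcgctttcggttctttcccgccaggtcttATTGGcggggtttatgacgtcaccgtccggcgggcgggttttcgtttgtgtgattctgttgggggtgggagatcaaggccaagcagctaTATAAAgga
Hist1h2bp: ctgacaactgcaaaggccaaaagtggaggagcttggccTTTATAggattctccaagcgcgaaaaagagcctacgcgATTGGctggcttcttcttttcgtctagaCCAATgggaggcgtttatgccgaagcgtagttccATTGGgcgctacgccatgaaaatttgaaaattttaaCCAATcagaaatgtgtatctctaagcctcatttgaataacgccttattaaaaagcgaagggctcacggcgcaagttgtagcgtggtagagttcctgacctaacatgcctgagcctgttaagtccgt
Hist2h2aa1: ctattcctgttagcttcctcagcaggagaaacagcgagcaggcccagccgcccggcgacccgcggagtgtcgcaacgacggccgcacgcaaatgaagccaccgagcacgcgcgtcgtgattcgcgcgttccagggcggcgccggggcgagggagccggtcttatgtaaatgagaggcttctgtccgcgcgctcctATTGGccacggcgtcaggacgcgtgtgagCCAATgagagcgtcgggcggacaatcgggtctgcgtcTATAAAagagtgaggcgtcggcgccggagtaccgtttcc
The TH2A and TH2B genes lie 280 bases apart on opposite strands, so the Hist1h2aa window also covers most of the start region of Hist1h2ba, and it holds matches to all 3 motifs. The H1t window holds 1 match, a CCAAT.

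The histone genes took up different shares of the 2 kinds of library. They received 0.0336%, 0.0344% and 0.0367% of counts in homozygous CB, and 0.02%, 0.0518% and 0.048% in heterozygous CB. In spermatids they received 0.0812% and 0.0753% in homozygotes, 0.078% and 0.0812% in heterozygotes, and 0.149% and 0.088% in wild type. Heterozygous CB library 1 was the lowest of all, with a 95% Wilson interval of 0.0193 to 0.0207%, and wild-type spermatid library 1 the highest, with an interval of 0.147 to 0.15%. The intervals account for counting error alone, as reads lacking molecular identifiers may repeat a molecule. Linker H1 genes made up 29.6 to 35.1% of histone counts in CB and 0.53 to 0.7% in spermatids, whereas H2A genes made up 20 to 27.4% in CB and 71.8 to 78.2% in spermatids. In bulk samples, fewer cells of a type and less RNA per cell cannot be told apart.

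**Figure D1:**
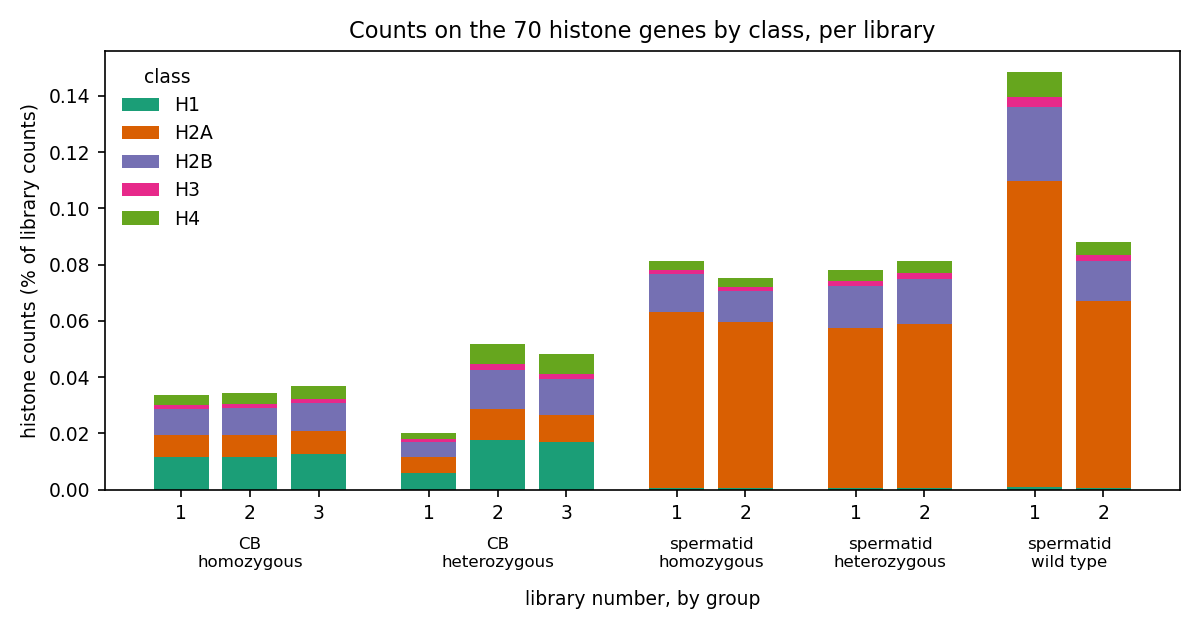
Stacked bars give the percent of each library's counts on the 70 histone genes, split by class, for each library of each group (vertical axis from 0). H2A takes most of the bar in every spermatid library and H1 is visible only in CB, with heterozygous CB library 1 lowest at 0.02% and wild-type spermatid library 1 highest at 0.149%.

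Few histone genes made up the spermatid signal. Hist2h2aa2, which encodes a core H2A, was the leading gene in every spermatid library, with 62.4 to 72.5% of all histone counts, and the leading 4 genes together held 94.3 to 95.6%. In CB the leading gene of every library was Hist1h1t, with 19.0 to 24.3%, and the leading 4 held 49.7 to 54.5%. A total of 17 histone genes had no count in any spermatid library, which allows at most 0.121 to 0.196 CPM per library at 3 counts, and 4 had none in any CB library. At least 10 counts in every library were reached by 33 genes in CB and by 12 in spermatids. Many copies are near-identical, and 58 of the 70 genes had a fractional count in some library, so the division of reads among copies is the authors' estimate.

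The testis variants were high in CB and low in spermatids. On the deposited TPM scale, which corrects for length, Hist1h2ba (TH2B) had 505, 498 and 597 TPM in homozygous CB and 202, 716 and 668 TPM in heterozygous CB. In spermatids it had 2.53 and 2.59 TPM in homozygotes, 7.94 and 4.15 TPM in heterozygotes and 2.49 and 2.97 TPM in wild type, so every CB library lay above every spermatid library. It had the highest mean TPM of all 70 genes in CB. Hist1h1t (H1t) had 263, 246 and 279 TPM in homozygous CB and 107, 318 and 331 TPM in heterozygous CB. Its spermatid values were 6.56 and 8.83 TPM in homozygotes, 7.3 and 6.15 TPM in heterozygotes, and 10 and 7.4 TPM in wild type. Hist1h2aa (TH2A), the divergent partner of TH2B, followed with 84.4 ± 14.4 TPM in homozygous CB and 86.4 ± 36.3 TPM in heterozygous CB (SD, n = 3 each), against 1.61 to 6.35 TPM over the spermatid libraries. In all 3 genes, heterozygous CB library 1 was the lowest CB library.

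Other histone genes split by kind of library in both directions. Hist1h1a, which encodes linker histone H1.1, averaged 97.6 ± 11.1 TPM in homozygous CB and 119 ± 66.1 TPM in heterozygous CB (SD, n = 3 each), against 0.55 to 2.45 TPM in spermatid libraries. Hist1h4m, an H4 gene, averaged 77.4 ± 23.6 TPM in homozygous CB and 87.7 ± 49.8 TPM in heterozygous CB, and had 0 counts in 5 of the 6 spermatid libraries. Hist1h4n, another H4 gene, had 0 counts in all spermatid libraries, and its CB level was at least 49.4-fold higher in homozygotes and at least 80.6-fold higher in heterozygotes, set against 3 counts over the spermatid group. The opposite held for the leading spermatid genes. Hist2h2aa2 averaged 62.7 ± 63.7 TPM in homozygous CB and 38.1 ± 18.9 TPM in heterozygous CB, but 3150 ± 102 TPM in homozygous, 2920 ± 118 TPM in heterozygous and 3480 ± 67 TPM in wild-type spermatids (SD, n = 2 each). Hist1h2bp, an H2B gene, averaged 46.4 ± 6.35 and 46.2 ± 16.9 TPM in homozygous and heterozygous CB, and 461 ± 52.0, 611 ± 15.1 and 647 ± 149 TPM in homozygous, heterozygous and wild-type spermatids. Of its 2 annotated transcripts, the 621-base one took 60.5 to 81.9% of the gene in CB and 80.2 to 93.1% in spermatids.

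Hist2h2aa1 and Hist2h2aa2 are a near-identical pair 5122 bases apart on chromosome 3, and their division is uncertain. The share of the pair assigned to Hist2h2aa2 was 35.5%, 0% and 16.1% in the homozygous CB libraries and 9.2%, 11.5% and 13.9% in the heterozygous ones. It was 87.6 to 94.4% in spermatids. The summed count of the pair, as CPM of the library total, avoids that division, and was 48.4, 46.6 and 50 in homozygous CB and 28.1, 62.4 and 50.9 in heterozygous CB. The sums were 621 and 586 in homozygous, 564 and 579 in heterozygous, and 1080 and 660 in wild-type spermatids. Even summed, the pair was lower in every CB library than in every spermatid library.

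Over the 54 genes with enough counts in the 12 libraries fitted together, the median log2 ratio of CB over spermatid level was 2.88 in homozygotes and 3.31 in heterozygotes (normalised CPM with 0.1 added). Of these, 36 did not pass the filter in spermatids alone and entered through CB, where they are high, so the medians describe the genes that passed. Over the other 18 the medians were 1.23 in homozygotes and 1.17 in heterozygotes, with 10 genes above 1 and 4 below -1 in each. With the 17 genes per genotype that had no spermatid count set at their bound, the medians over all 54 were 2.93 and 3.23. In heterozygotes 46 genes lay above a log2 ratio of 1 and 4 below -1, which were Hist1h3a at -1.69, Hist1h4a at -3.43, Hist1h2bp at -4.33 and Hist2h2aa2 at -6.70. In homozygotes the same genes stood at -1.16, -3.25, -4.07 and -6.18. TH2B had the highest ratio in homozygotes, at 7.07, and stood at 6.27 in heterozygotes. Kit, input amount and labelled cell type all differ with the kind of library and cannot be told apart from it, so no test was made. Selection of RNA may differ too, as it is not stated for spermatids.

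**Figure D2:**
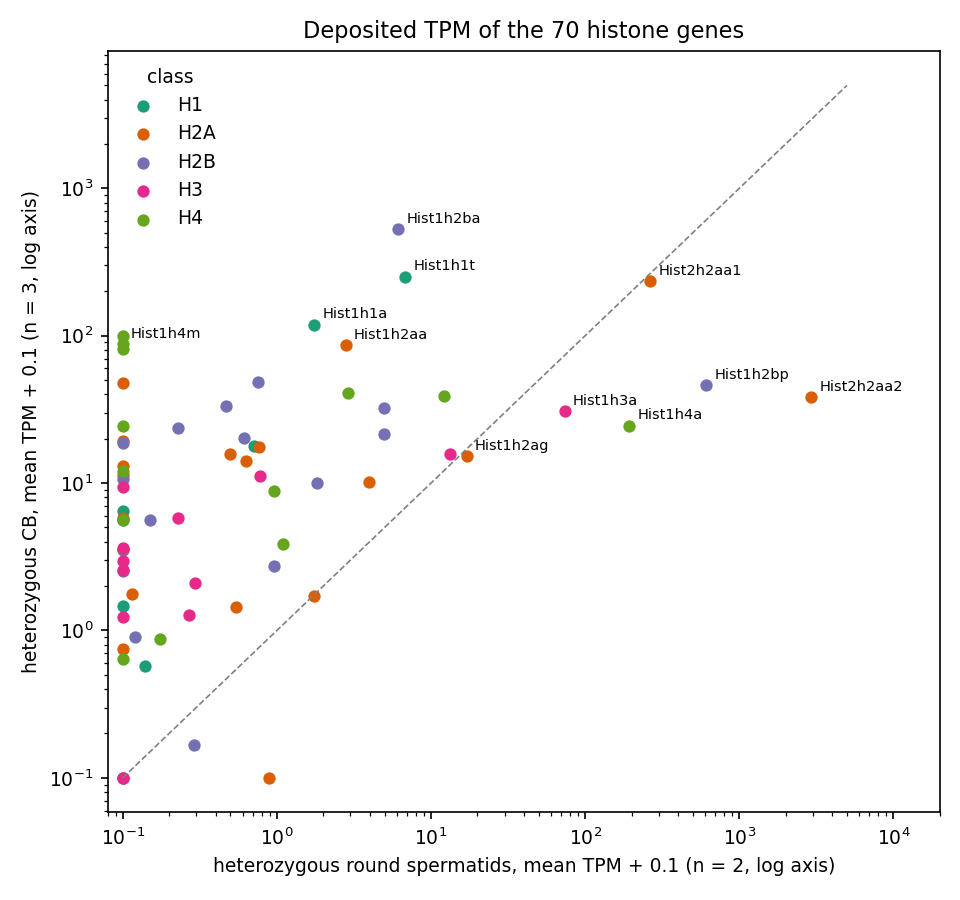
Each point is a histone gene, with its mean deposited TPM plus 0.1 in heterozygous CB (vertical, n = 3) against heterozygous round spermatids (horizontal, n = 2), both on log axes, coloured by class; the dashed line marks equal levels. Most genes lie above the line, TH2B (Hist1h2ba) and H1t (Hist1h1t) far above it, and Hist2h2aa2 and Hist1h2bp far below it.

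Homozygous spermatids were compared with wild-type spermatids to ask what the knock-in does to these RNAs. None of the 18 histone genes tested passed edgeR's quasi-likelihood test at a Benjamini-Hochberg adjusted p of 0.05, where 2.86% of all 17809 genes did. Without adjustment 8 histone genes had a p under 0.05, as had 22.7% of all genes. DESeq2 called Hist1h3a, Hist1h4a and Hist2h2aa1 lower, 3 histone genes, where it called 2.59% of all genes lower. The H3 gene Hist1h3a had 7.76 and 7.6 CPM in homozygotes, against 27.7 and 14.2 CPM in wild type, with a log2 change of -1.45 (SE 0.317, edgeR adjusted p = 0.0723). Its neighbour Hist1h4a, an H4 gene, had 28.9 and 27.6 CPM in homozygotes, against 84.1 and 41.8 CPM in wild type (log2 -1.15, SE 0.322, edgeR adjusted p = 0.118). Both genes lay lower in both homozygous libraries than in either wild-type library, and in both the wild-type libraries lay far apart.

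The leading H2A and H2B genes had the same order of groups. Hist2h2aa2 had 571 and 538 CPM in homozygotes, against 984 and 619 CPM in wild type (log2 -0.53, SE 0.211, edgeR adjusted p = 0.207). Hist1h2bp had 122 and 102 CPM in homozygotes, against 259 and 135 CPM in wild type (log2 -0.81, SE 0.296, edgeR adjusted p = 0.186). Hist2h2aa1 had 34.0 and 39.6 CPM in homozygotes, against 115 and 55.8 CPM in wild type (log2 -1.22, SE 0.374, edgeR adjusted p = 0.14). In each of these the groups did not overlap, but wild-type library 2 lay closer to the homozygous libraries than to wild-type library 1. In Hist1h2ag, an H2A gene, the groups overlapped, with 2.11 and 1.31 CPM in homozygotes and 5.56 and 1.77 CPM in wild type.

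Among the genes of low level, the H2A gene Hist2h2ab had 3 counts in all in homozygous spermatids, against 35 in wild type, a ratio of 0.0989 with a 95% exact counting interval of 0.0195 to 0.314 (edgeR adjusted p = 0.107). Hist1h2bj, an H2B gene, averaged 0.363 ± 0.0683 CPM in homozygotes and 0.997 ± 0.363 CPM in wild type (SD, n = 2 each). The positive changes were those of the linker genes Hist1h1a at log2 0.64 (SE 0.739) and Hist1h1c at 0.22 (SE 0.576), neither past the test. H1t averaged 3.82 ± 0.751 CPM in homozygotes and 5.25 ± 2.13 CPM in wild type (log2 -0.45, SE 0.332, edgeR adjusted p = 0.453). TH2A and TH2B were too low in spermatids to be tested, with 7 and 2 counts of TH2A in homozygotes and 16 and 9 in wild type, and 3 and 3 counts of TH2B in homozygotes and 6 and 5 in wild type.

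Over the 18 tested genes the median log2 change was -0.58, with 16 negative, and the median of all tested genes was -0.000581. All tested genes under 1000 bases, a size that 52 of the 70 histone genes share, had a median of -0.344. The groups did not overlap, with homozygotes lower, for 11 of the 18, against 25% of all genes, and with homozygotes higher for 0, against 26.7%. Only 18 of 70 genes passed the filter on low counts, so these counts describe the genes that passed. Without wild-type library 1 the median was -0.353 and 6 genes were called lower (13.4% of all genes were), and without wild-type library 2 it was -1.22 and 11 were called lower (22.3% of all genes). In those fits the lone wild-type library is assumed to vary like the other groups. With no filter on low counts 5 genes were called lower (2.44% of all genes), and with the trend over gene length removed 2 were (5.87%). Of 17 round spermatid markers, 15 had a negative change and 2 a positive one, with a median log2 of -0.313. Spermatocyte markers summed to 1340 and 1330 CPM in homozygotes and 958 and 764 CPM in wild type. Their changes were mixed, 10 positive and 6 negative, with a median log2 of 0.162 and a highest of 4.09. Sertoli cell markers summed to 39.1 and 39.3 CPM in homozygotes and 75.4 and 64.4 CPM in wild type. For peritubular and vascular markers the sums were 176 and 179 CPM in homozygotes and 277 and 275 CPM in wild type. Yet 4 of the 7 tested genes had a positive change and 3 a negative one, with a median log2 of 0.687. Immune markers summed to 35.3 and 35.0 CPM in homozygotes and 17.3 and 15.7 CPM in wild type. No marker of these lists was at 0 in all spermatid libraries, and their part in the result was not tested.

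**Figure D3:**
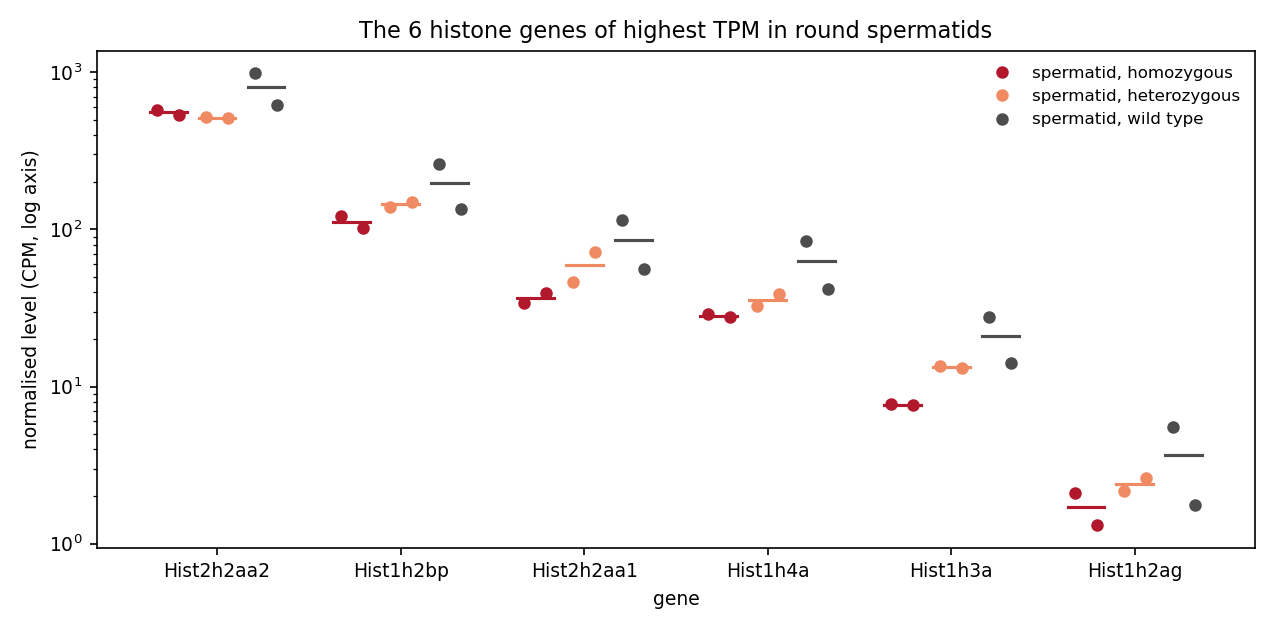
Points give normalised CPM per library (log axis) of the 6 histone genes with the highest mean TPM in round spermatids, with homozygous, heterozygous and wild-type libraries from left to right and a bar at each mean (n = 2). For Hist2h2aa2 the homozygous libraries sit at 571 and 538 CPM and the wild-type ones at 984 and 619 CPM, and the wild-type pair is the widest for every gene shown.

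Homozygous against heterozygous spermatids is the comparison that both kinds of library share in design. No histone gene of the 18 tested passed edgeR's test, where 1.73% of all genes did, DESeq2 called 0, and 2 histone genes had an unadjusted p under 0.05, against 16.7% of all genes. Hist1h3a had 7.76 and 7.6 CPM in homozygotes, against 13.5 and 13.1 CPM in heterozygotes, with no overlap (log2 -0.79, SE 0.317, edgeR adjusted p = 0.286). Hist2h2aa1 averaged 36.8 ± 4 CPM in homozygotes and 59.2 ± 18 CPM in heterozygotes (SD, n = 2 each; log2 -0.68, SE 0.372). Hist2h2aa2, the most abundant, averaged 554 ± 23.5 CPM in homozygotes and 514 ± 7.95 CPM in heterozygotes (log2 0.11, SE 0.210, edgeR adjusted p = 0.854).

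The H4 and H2B leaders stood closer together in this pair of groups. Hist1h4a averaged 28.3 ± 0.925 CPM in homozygotes and 35.7 ± 4.30 CPM in heterozygotes (log2 -0.34, SE 0.321), and Hist1h2bp 112 ± 14.4 CPM in homozygotes and 144 ± 7.67 CPM in heterozygotes (log2 -0.36, SE 0.295). H1t had a log2 change of 0.20 (SE 0.342), the H4 gene Hist1h4c one of 0.20 (SE 0.379) and the H2B gene Hist1h2bc one of -0.81 (SE 0.675). None of these passed the test. Hist2h2ab had 3 counts in homozygotes and 14 in heterozygotes, a ratio of 0.195 with a counting interval of 0.036 to 0.7. The H3 gene Hist2h3b had 11 counts in 1 homozygous library and 0 in the others of both groups, so no fold is given.

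The median over the 18 genes was -0.292, with 13 negative, beside -0.000731 for all genes and 0.0618 for all tested genes under 1000 bases. Homozygotes were lower without overlap for 11 genes, against 32% of all genes, and higher for 1, against 32.6%. When the heterozygous and homozygous libraries were fitted without the wild-type ones, 5 histone genes were called lower, where 14.9% of all genes were. These were Hist1h3a, Hist1h4a, Hist1h2bp, Hist2h2aa1 and Hist2h3c2, an H3 gene named after its values were seen. The same 5 were called without wild-type library 1 (15.1% of all genes lower) and without library 2 (14.9%). With the length trend removed Hist1h3a and Hist2h3c2 were called lower (3.95% of all genes).

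Heterozygous spermatids were also set against wild type. No histone gene passed edgeR's test, and neither did any other gene (0%); 2 histone genes had an unadjusted p under 0.05, against 7.28% of all genes, and DESeq2 called 0. Hist2h2aa2 had 520 and 508 CPM in heterozygotes, against 984 and 619 CPM in wild type (log2 -0.64, SE 0.211, edgeR adjusted p = 0.519). Hist1h4a had 32.7 and 38.8 CPM in heterozygotes, against 84.1 and 41.8 CPM in wild type (log2 -0.82, SE 0.320). The heterozygous libraries lay below both wild-type libraries in these 2 genes, whereas they overlapped the wild-type range in Hist1h2bp, Hist2h2aa1 and Hist1h2ag. Hist1h3a had a log2 change of -0.66 (SE 0.309) and H1t one of -0.65 (SE 0.337). Hist2h2ab averaged 0.413 ± 0.0640 CPM in heterozygotes and 0.820 ± 0.0035 CPM in wild type (SD, n = 2 each), and Hist2h3b had 0 counts in heterozygotes and 13 in wild type, all 13 in library 1. The 3 largest of the 4 positive changes, in Hist1h1a (0.73, SE 0.744), Hist1h1c (0.32, SE 0.579) and the H2B gene Hist2h2be (0.12, SE 0.254), were each smaller than their SE.

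The median was -0.587, with 14 of 18 negative, beside -0.423 for all tested genes under 1000 bases. Heterozygotes were lower without overlap for 7 genes, against 22.1% of all genes, and higher for 1, against 22.5%. Without wild-type library 1 the median was -0.0494 and 1 gene, Hist2h2aa2, was called lower (0.404% of all genes). Without wild-type library 2 the median was -0.954, and 9 genes were called lower (21.9% of all genes) and 1 higher (22.4%). This comparison and that of homozygotes with wild type share the wild-type libraries.

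In CB, homozygotes were compared with heterozygotes over 52 testable histone genes. None passed edgeR's test, where 1.72% of all 19335 genes did, DESeq2 called 0, and 5 histone genes had an unadjusted p under 0.05, against 14.5% of all genes. H1t had 81.6, 77.5 and 86.1 CPM in homozygotes, against 40, 107 and 109 CPM in heterozygotes (log2 -0.06, SE 0.290, edgeR adjusted p = 0.952). TH2B had 35.2, 37.9 and 40 CPM in homozygotes, against 18.3, 55.2 and 49.5 CPM in heterozygotes (log2 -0.12, SE 0.308, edgeR adjusted p = 0.905). TH2A had 5.95, 5.61 and 6.93 CPM in homozygotes, against 4.3, 9.32 and 7.43 CPM in heterozygotes (log2 -0.19, SE 0.253, edgeR adjusted p = 0.797). In all 3 the homozygous libraries lay close together between heterozygous library 1, which was lower, and heterozygous libraries 2 and 3, which were higher.

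Hist1h1a had the same layout, with 20.2, 23.0 and 25.0 CPM in homozygotes, against 12.3, 42.0 and 36.0 CPM in heterozygotes (log2 -0.41, SE 0.337, edgeR adjusted p = 0.651). Hist1h4m averaged 6.07 ± 1.77 CPM in homozygotes and 7.50 ± 3.84 CPM in heterozygotes (SD, n = 3 each; log2 -0.31, SE 0.373). In Hist1h4m and Hist2h2aa1 heterozygous library 1 was again the lowest, but the homozygous libraries lay further apart. Hist2h2aa1 averaged 39.6 ± 7.52 CPM in homozygotes and 41.7 ± 14 CPM in heterozygotes (log2 -0.08, SE 0.230). The largest negative changes were those of the H2A gene Hist1h2ac (-1.03, SE 0.471), of Hist1h1d, a linker H1 gene (-0.96, SE 0.375), and of Hist1h4n (-0.93, SE 0.410). The largest positive ones were those of Hist2h2aa2 (0.58, SE 0.862) and of the H3 genes Hist1h3b (0.33, SE 0.599) and Hist1h3h (0.33, SE 0.532). None of these passed the test. Hist1h1d had 0.789, 0.883 and 0.911 CPM in homozygotes, all below the 1.0, 2.44 and 1.61 CPM of heterozygotes.

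**Figure D4:**
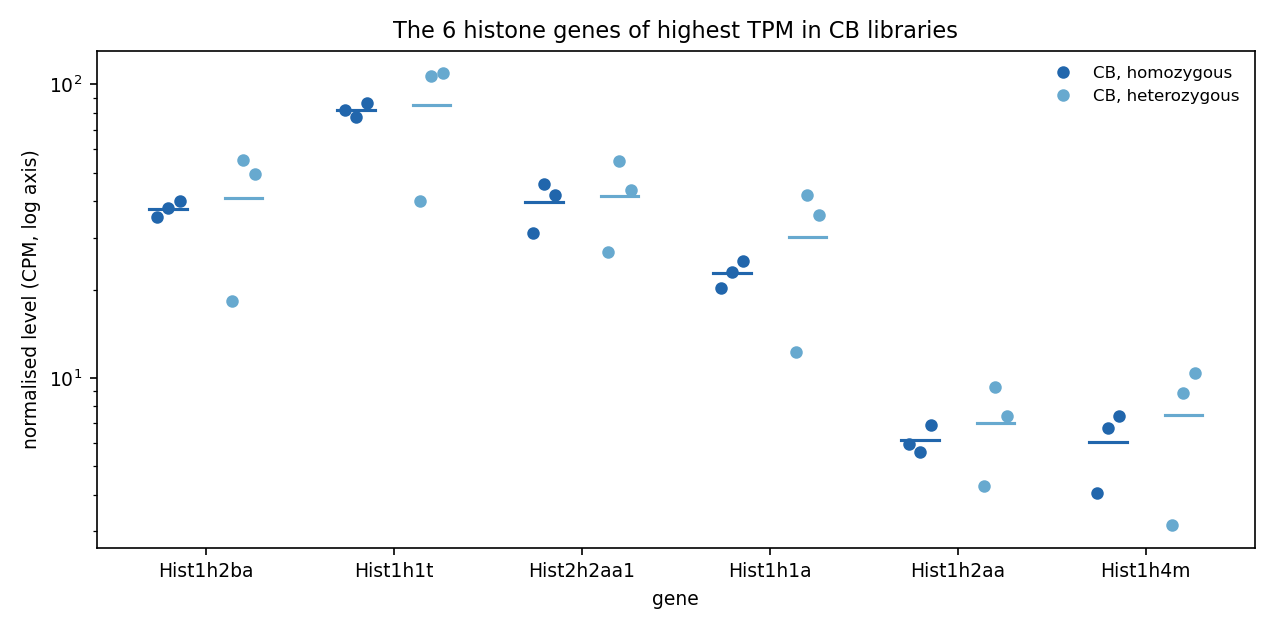
Points give normalised CPM per library (log axis) of the 6 histone genes with the highest mean TPM in CB, with homozygous libraries left of heterozygous ones and a bar at each mean (n = 3). H1t (Hist1h1t) sits at 77.5 to 86.1 CPM in homozygotes, and in heterozygotes 1 library sits at 40 CPM and the others at 107 and 109 CPM.

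Heterozygous CB library 1 was low across the family. Of the 52 tested histone genes, 48 were lower in it than in both other heterozygous libraries, which 40% of all genes were. The median histone gene was lower by a log2 difference of -1.47, beside -0.00118 for all genes. Summed histone levels were 336, 338 and 366 CPM in homozygotes and 211, 512 and 479 CPM in heterozygotes. In that library Sertoli markers summed to 89.1 CPM, against 163 and 154 CPM in its fellows, and Leydig markers to 79.1 CPM, against 139 and 136 CPM. In the homozygous libraries Sertoli markers summed to 110 to 115 CPM, Leydig markers to 150 to 164 CPM and spermatogonial markers to 99.6 to 103 CPM. All genes of these lists had counts in every CB library, and their part in the result was not tested.

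With all libraries the median CB change was -0.291, with 45 of 52 negative, beside -0.135 for all tested genes under 1000 bases. Homozygotes were lower without overlap for 3 genes, against 9.78% of all genes, and higher for 0, against 11.5%. With no filter on low counts 2 genes were called lower, where 0.977% of all genes were. Without heterozygous library 1 the median was -0.56, with 50 of 52 negative, and 15 genes were called, all lower, where 4.15% of all genes were called lower. In that fit H1t had a log2 change of -0.41 (SE 0.0667, edgeR adjusted p = 0.00369), TH2B -0.48 (SE 0.0895, edgeR adjusted p = 0.0069) and Hist1h1a -0.79 (SE 0.113, edgeR adjusted p = 0.00185). TH2A, at -0.45 (SE 0.164), did not pass (edgeR adjusted p = 0.112). Among heterozygous libraries, library 1 was lowest in 48 of the 52 genes, so leaving it out raises their heterozygous level and narrows its spread. The p-values and calls of that fit are therefore no independent support for a change. Leaving out heterozygous library 2 gave a median of -0.0882 and leaving out library 3 gave -0.173, each with 0 genes called. Whether library 1 or its fellows stand for heterozygous CB cannot be told from these files.

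**Figure D5:**
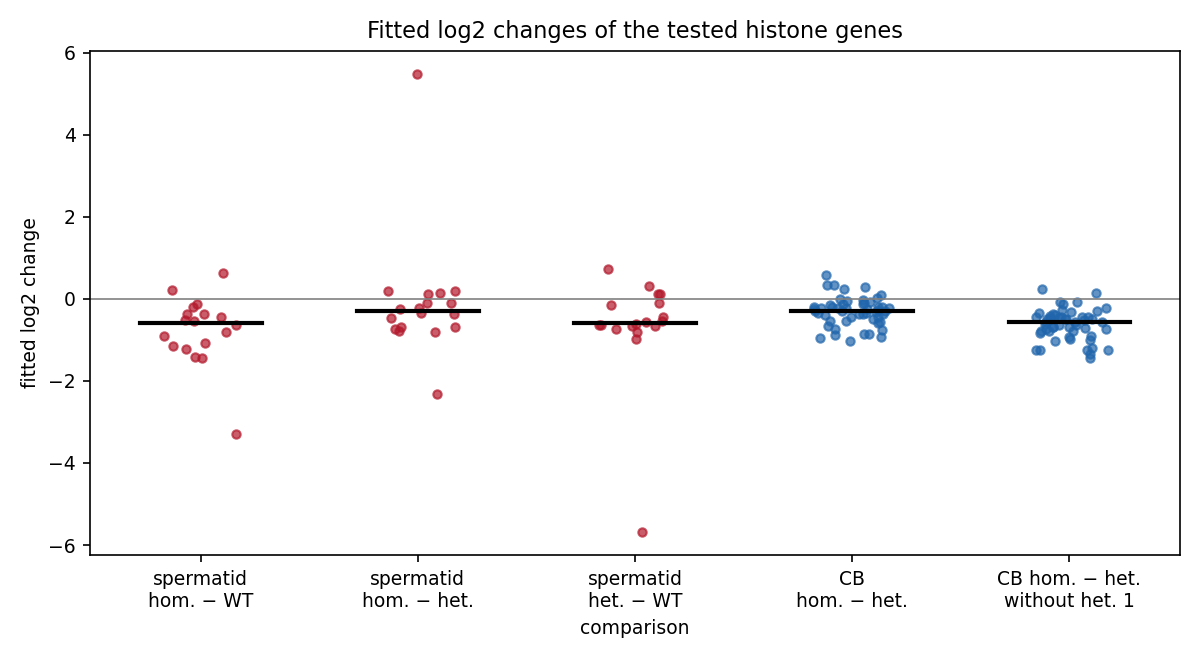
Points are fitted log2 changes of the tested histone genes in each comparison (18 genes in spermatids, 52 in CB), with a bar at the median; the last column repeats the CB comparison without heterozygous library 1. The medians lie at -0.58, -0.292, -0.587, -0.291 and -0.56 from left to right, and the points beyond 5 on either side are Hist2h3b, which had 0 counts in heterozygous spermatids.

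The difference between the homozygous effect in CB and that in spermatids was fitted for 54 histone genes over all 12 libraries. Of these, 36 did not pass the filter on low counts in spermatids, so their spermatid effect could hardly be measured and the comparison informs on the other 18. No gene passed edgeR's test, where 0.209% of all 22002 genes did, DESeq2 called 0, and 1 histone gene had an unadjusted p under 0.05, against 8.9% of all genes. Over the 18 genes the median log2 difference was 0.20.

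Genes that act on histone mRNAs and proteins were read from lists beside the histone genes. Slbp, which binds the histone stem-loop, averaged 75.4 ± 2.67 CPM in homozygous, 66.4 ± 5.11 CPM in heterozygous and 73.9 ± 12.5 CPM in wild-type spermatids (SD, n = 2 each). It averaged 54.1 ± 3.96 CPM in homozygous and 49.9 ± 11.5 CPM in heterozygous CB (SD, n = 3 each), and it passed no test. Of 22 histone mRNA processing genes, edgeR called 0 in any comparison. Before adjustment, 3 had a p under 0.05 in homozygous against wild-type spermatids and 3 in CB, against 22.7% and 14.5% of all genes. DESeq2 called 1 and 2 there. Of the replication-independent histone genes tested, 20 in spermatids and 17 in CB, edgeR called 0. Unadjusted, 3 of them had a p under 0.05 in homozygous against wild-type spermatids and 1 in homozygous against heterozygous spermatids. In heterozygous against wild-type spermatids 3 did, and in CB 1. In the same order, the shares of all genes were 22.7%, 16.7%, 7.28% and 14.5%, and DESeq2 called 1, 1, 0 and 0 listed genes. These counts of 0 did not hold when 1 or both wild-type libraries, or heterozygous CB library 1, were left out. Those fits also called more of all genes lower than the fits with all libraries, with the shares given above beside the histone genes. The counts of the lists were not tested against those shares. For most of these fits no share of all genes called higher is given, so most counts called higher stand without one. Without wild-type library 1, homozygotes against wild type gave 2 processing genes higher and 4 lower, and 6 replication-independent histone genes higher and 4 lower. Without wild-type library 2 it gave 7 processing genes higher and 5 lower, and 13 replication-independent histone genes lower. Homozygotes against heterozygotes, fitted without wild type, gave 3 processing genes higher and 3 lower, and 8 replication-independent histone genes higher and 2 lower. In that fit 14.9% of all genes were called lower. Heterozygotes against wild type without library 2 gave 8 processing genes higher and 5 lower, and 13 replication-independent histone genes lower. In CB without heterozygous library 1, 2 processing genes were higher and 1 lower, and 1 replication-independent histone gene was higher and 2 lower. There 4.15% of all genes were called lower.

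Among 31 histone chaperone and removal genes, Nap1l1, a histone chaperone, rose in homozygous spermatids, with 84.4 ± 1.39 CPM, against 45.1 ± 4.72 CPM in heterozygotes (log2 0.90, SE 0.145, edgeR adjusted p = 0.0443) and 39.7 ± 3.80 CPM in wild type (log2 1.09, SE 0.146, edgeR adjusted p = 0.0222; SD, n = 2 each). It was the 1 gene of that list called in each of these comparisons, where 1.73% and 2.86% of all genes were called. With the homozygous and wild-type groups fitted alone, 0 of the 31 were called. With the homozygous and heterozygous groups fitted alone, 5 were called higher and 4 lower, where 14.9% of all genes were called lower. DESeq2 called 2 higher against wild type and 1 higher against heterozygotes. The change of Nap1l1 kept its direction without any 1 library, at 0.80 to 1.01 against heterozygotes and 0.995 to 1.19 against wild type. The call against wild type was lost without either homozygous library (edgeR adjusted p = 0.265 and 0.261) or either heterozygous one (0.115 and 0.117). Against heterozygotes the same 4 fits gave 0.427, 0.398, 0.378 and 0.469. In CB edgeR called 0 of the 31 and DESeq2 called 1, and 3 had a p under 0.05 before adjustment, against 14.5% of all genes. Without heterozygous library 1 edgeR called 5 higher. More of all genes were also called in that fit, and in the fits without a wild-type library, than with all libraries. The share of all genes called higher in those fits is mostly not given, so most counts called higher stand without one. In homozygous against wild-type spermatids, leaving out wild-type library 1 gave 4 higher and 6 lower, and leaving out library 2 gave 12 higher and 7 lower.

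Cell-cycle and protamine genes were read in the same way, and here too the fits that left out wild-type libraries called more of all genes. Again, most counts called higher have no share of all genes beside them. Of 23 genes of S phase and proliferation, 1 was called in CB, Mki67, a marker of cycling cells, with 327 ± 11.5 CPM in homozygotes and 197 ± 3.53 CPM in heterozygotes (SD, n = 3 each; log2 0.73, SE 0.0934, edgeR adjusted p = 0.00551). Without homozygous CB library 1 its change of 0.73 did not pass (edgeR adjusted p = 0.0631), and without heterozygous library 1 it was 0.71 (edgeR adjusted p = 8.99e-05). Summed over the list, levels were 1130, 1080 and 1090 CPM in homozygous CB and 856, 956 and 1000 CPM in heterozygous CB. Of the 23 changes in CB, 12 were positive and 11 negative, with a median log2 of 0.051. In spermatids edgeR called 0 of the 23, with 7 at an unadjusted p under 0.05 in homozygotes against wild type, against 22.7% of all genes. There DESeq2 called 3 higher, for which no share of all genes is given. That comparison gave 7 higher and 2 lower without wild-type library 1, and 13 higher and 2 lower without library 2. Homozygotes against heterozygotes, fitted without wild type, gave 5 higher and 1 lower, and heterozygotes against wild type without library 2 gave 7 higher and 3 lower.

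Of 5 transition protein and protamine genes, Prm1, which encodes a protamine, fell in CB, with 88.9 ± 2.17 CPM in homozygotes and 214 ± 87.2 CPM in heterozygotes (SD, n = 3 each; log2 -1.27, SE 0.226, edgeR adjusted p = 0.0216). All 5 had a negative change in CB, 4 with an unadjusted p under 0.05, against 14.5% of all genes. DESeq2 called 3 lower. Of 17 round spermatid markers, a list that also holds Prm1, 15 had a negative change in CB, with a median log2 change of -0.34. Of these markers edgeR called 4 lower, where it called 1.72% of all genes in either direction. Without heterozygous library 1 the change of Prm1 was -0.89 (edgeR adjusted p = 9.14e-05), and without any 1 homozygous library it did not pass (edgeR adjusted p = 0.12 to 0.13). In spermatids edgeR called 0 of the 5, with 2 at an unadjusted p under 0.05 in homozygotes against wild type, against 22.7% of all genes. There DESeq2 called 1 lower, where it called 2.59% of all genes lower. That comparison gave 2 higher and 1 lower without wild-type library 1, and 5 lower without library 2. Heterozygotes against wild type also gave 5 lower without library 2, and 1 lower without library 1.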

How the data were processed

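RNA of round spermatids and CB RNA was read from 12 libraries; small RNA libraries of the series were not used here. Per the file headers, the authors deposited an expected count, TPM and transcript length per Ensembl gene, and expected counts with the percent of each isoform per transcript. The sources used here name no aligner or quantifier. The submitters' processing notes name Trim Galore and mm10. The deposited expected counts were rounded to whole numbers. The deposited TPM values, scaled by the authors for length and library, were used as deposited to compare levels between genes. The isoform percent values deposited by the authors were used for Hist1h2bp alone.

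Counts were tested with edgeR 4.0.16 in R 4.3.3 (quasi-likelihood F test, TMM, filterByExpr by group, Benjamini-Hochberg over all genes tested, threshold 0.05). One fit held the 6 spermatid libraries, another the 6 CB libraries, and another all 12 for the interaction. Normalised levels are CPM on TMM-scaled library sizes, given as mean ± SD. DESeq2 1.42.0, other size factors, no filter on low counts, removal of a length trend (lowess span 0.3), a replicate block, and leaving out each library were tried as alternatives. On simulated data, the test for homozygous against wild-type spermatids recovered 100% of genes changed 4-fold, 70% of those changed 2-fold and 20% of those changed 1.5-fold. The recovered shares for homozygous against heterozygous spermatids were 98.8%, 56.2% and 15%, and for CB 98.8%, 88.8% and 40%. The simulated spread between libraries was set below the fitted common dispersion, which was 0.0427 in spermatids and 0.024 in CB. Only genes above a floor on mean counts were changed. Recovery in the real data may therefore be lower, and the shares do not cover histone genes of low count. No library was treated as a copy of another: over genes, the lowest ratio of chi-square to its degrees of freedom within a group was 2.47.

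The genes and lists were chosen with earlier results of these data known. Named histone genes are those called in any comparison, the 6 of highest mean TPM per kind of library, the 3 testis variants, and the 3 largest changes in each direction per comparison; among list genes, Slbp and up to 4 called ones are eligible. Genes of the marker lists are given as sums.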

Additional observations from a re-analysis of the deposited data

How the results depend on the processing

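The count of histone genes called was 0 in each comparison as reported, and changed as follows. For homozygous against wild-type spermatids it was 3 with DESeq2, 5 with no filter on low counts and 2 with the length trend removed; leaving out 1 library gave 0 to 11. For homozygous against heterozygous spermatids it was 2 with the length trend removed and 5 with only the compared groups fitted, and leaving out 1 library gave 0 to 5. For heterozygous against wild-type spermatids, leaving out 1 library gave 0 to 10. In CB it was 2 with no filter, and leaving out 1 library gave 0 to 15. The interaction count was 0 in every setting run. The median change of heterozygous against wild-type spermatids was -0.0143 with the length trend removed, and leaving out 1 library gave -0.954 to -0.0494. Leaving out 1 library gave -1.22 to -0.353 for homozygous against wild type, -0.435 to -0.218 for homozygous against heterozygous spermatids and -0.56 to -0.0882 in CB. The median CB over spermatid log2 ratio of the 54 genes was 4.33 in homozygotes and 4.77 in heterozygotes on deposited TPM. Of those genes, 36 entered through CB, where they are high. In each genotype 17 had no spermatid count, so their ratios rest on the 0.1 added. No TPM median was taken over the other 18. The causes were not tested.

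Single genes changed sign as follows; none passed the test at the changed sign. With the length trend removed, Hist2h2aa2 stood at 0.0533 for homozygous against wild-type spermatids; for heterozygous against wild type, Hist1h2ag stood at 0.17, Hist1h2bp at 0.10 and Hist2h2aa1 at 0.0356; and in CB Hist1h1t stood at 0.0202, Hist1h2aa at 0.025, Hist1h2ba at 0.0682 and Hist2h2aa1 at 0.0741. Leaving out 1 library at a time gave, for homozygous against wild-type spermatids, -0.82 to 0.0285 for Hist1h1t, -0.35 to 1.04 for Hist1h1c and -0.71 to 1.32 for Hist1h1a. It gave, for heterozygous against wild type, -1.23 to 0.42 for Hist1h2ag, -0.84 to 0.0905 for Hist1h2bp, -0.97 to 0.0729 for Hist2h2aa1, -0.19 to 0.53 for Hist2h2be and -0.25 to 1.13 for Hist1h1c. For homozygous against heterozygous spermatids it gave -0.0768 to 0.56 for Hist1h4c, -0.0188 to 0.38 for Hist1h1t and 0 to 6.46 for Hist2h3b, whose fitted change rests on a group with 0 counts. In CB it gave -0.41 to 0.15 for Hist1h1t, -0.48 to 0.15 for Hist1h2ba, -0.45 to 0.0707 for Hist1h2aa, -0.32 to 0.17 for Hist2h2aa1, -0.22 to 0.73 for Hist1h3b, -0.26 to 0.73 for Hist1h3h, -0.68 to 0.000808 for Hist1h4m and -0.48 to 1.16 for Hist2h2aa2.

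In CB, libraries with the same number did not pair by the check used, with correlations of their deviations at -0.00336, -0.2 and -0.144. Between the spermatid groups the correlations were -0.143, 0.151 and -0.0238. With 2 libraries per group, crossed libraries must give the same values with the sign reversed. The check therefore cannot show that spermatid libraries did not pair. With the replicate block, 0 histone genes were called in each comparison, and over all genes 182 were called for homozygous against wild-type spermatids, 12 for homozygous against heterozygous, 0 for heterozygous against wild type, 163 in CB and 2 in the interaction. With the block, Hist1h1t stood at 0.0604 and Hist1h2ba at 0.0114 in CB, and Nap1l1 at 0.91 for homozygous against heterozygous spermatids, no longer called (edgeR adjusted p = 0.0853). The crossed pairing of heterozygous and wild-type spermatids, chosen after seeing the data, called 0 genes. Low counts limit what could be tested, since 12 histone genes had at least 10 counts in every spermatid library and 33 in every CB library.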
